A study of Mus musculus with 4 samples.

Results

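Genes of mitochondrial proline, ornithine and citrulline metabolism, and of the arginine steps that follow, were examined in mouse ileum, namely Cps1, Otc, Ass1, Asl, Oat, Prodh, Aldh4a1, Aldh18a1 and Arg2. They were chosen by name, with earlier results of these data known. They make up 9 of the 11489 genes of the deposited table, in which every transcript of a gene was summed. All 9 were in the table and all 9 passed the filter for testing, an average of 1 FPKM or more across the libraries. FPKM counts fragments per kilobase of transcript and per sequencing depth, so levels of different genes can be compared within a library. The ileum (distal small intestine) came from wild-type C57BL/6J mice of 8 weeks. The control group had received vehicle, called DMSO in the labels. The other group had received 40 mg/kg of pregnenolone-16α-carbonitrile (PCN), injected into the abdomen 3 times, 8 h apart. A collection time of 8 h after the last dose is given in supplementary methods that name colon as the tissue. PCN is a synthetic steroid and a ligand of the rodent pregnane X receptor (PXR, gene Nr1i2), so the comparison shows which genes differ in tissue exposed to that ligand. Each group had 2 libraries, so n = 2 for every group mean given here.

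Enterocytes make citrulline from glutamine, glutamate and proline and release it to the blood, from which the kidney makes arginine. The shared intermediate is pyrroline-5-carboxylate. It is made from glutamate by pyrroline-5-carboxylate synthase (Aldh18a1) and from proline by proline dehydrogenase (Prodh), and it leaves either to ornithine through ornithine aminotransferase (Oat) or back to glutamate through Aldh4a1. Ornithine is joined to carbamoyl phosphate, the product of Cps1, by ornithine transcarbamylase (Otc) to give citrulline. Argininosuccinate synthase (Ass1) and lyase (Asl) turn citrulline into arginine, which the mitochondrial arginase Arg2 splits into ornithine and urea.

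The 4 libraries held 481925 to 550832 FPKM in total, and 3.87% to 7.15% of transcripts were listed at 0. The number of reads behind a value was unknown. The PXR target Cyp3a11 was at 26.1 and 14.7 FPKM in the vehicle libraries and at 163 and 214 in the PCN libraries (limma adjusted p = 0.0640). Cyp2c55 was at 59.4 and 27.3 and at 569 and 467 (adjusted p = 0.0650), so neither of these large differences passed the threshold in the main fit. With the test limited to genes of at least 5 FPKM on average both passed (limma adjusted p = 0.0193 and 0.0247). Both also passed after scaling to total FPKM (0.00644 each), and neither did without the variance trend (0.154 and 0.175). Ileal genes were abundant, with the bile acid binding protein gene Fabp6 at 3652 to 8059 FPKM, while the hepatocyte list (14 genes, 5 in the table) summed to 33.0 to 36.1 FPKM. Smooth muscle genes differed between the groups. The 11 found of the 12 listed summed to 415 and 824 FPKM in vehicle and to 234 and 290.2 in PCN, and 10 of the 11 were below both vehicle libraries in both PCN libraries. The 16 enterocyte genes summed to 13487 and 12794 FPKM in vehicle and to 12808 and 12388 in PCN. Within that list Fabp2 stood at 0.223 times its vehicle mean and passed the test (adjusted p = 0.0397), Alpi and Sis at 0.752 and 0.713 times, and Fabp1 at 1.97 times. Fewer cells of a type and less RNA per cell cannot be told apart in such tissue samples.

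After PCN, Aldh4a1 stood at 0.400 times its vehicle mean, and the other 8 genes lay between 0.715 times (Ass1) and 1.39 times (Cps1). Of the 9 genes, 0 passed the test over all genes (limma with log2(FPKM + 1) as input and a Benjamini-Hochberg adjusted p below 0.05), where 0.135% of the 11103 tested genes did, 9 higher and 6 lower. At an unadjusted p under 0.05, 3 of the 9 were lower in PCN (Aldh4a1, Asl and Prodh) and 0 higher, against 4.11% and 5.25% of all tested genes. With only the highest transcript of each gene 2 were lower, and the log2 fold change of Asl was -0.045. In 5 of the 9 both PCN libraries were below both vehicle libraries (Aldh4a1, Prodh, Asl, Ass1 and Otc), as in 19.1% of all tested genes, and in 0 both were above, as in 21.1%. The log2 fold change was negative in 6 and positive in 3, with a median of -0.25 beside 0.0029 over all tested genes. The genes were chosen with earlier results of these data known, so these shares cannot test for an excess among them.

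**Figure D1:**
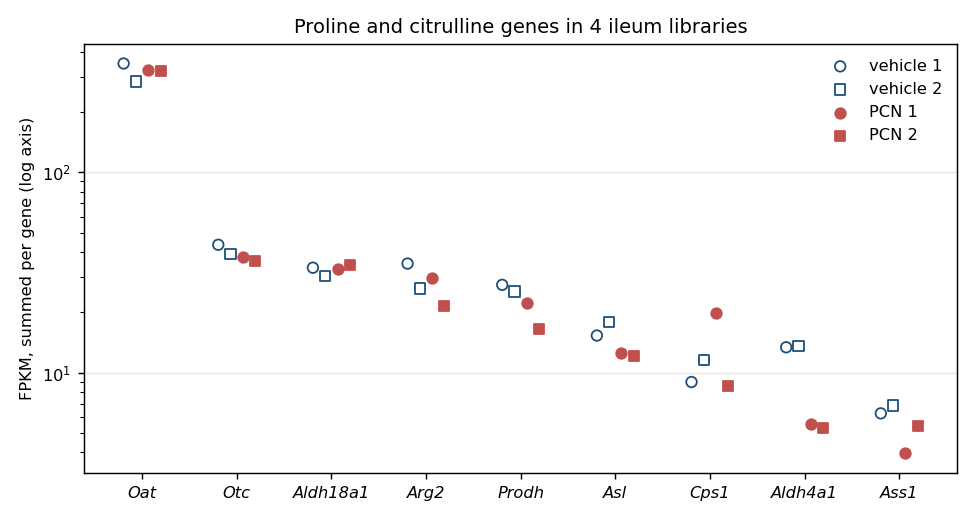
FPKM of the 9 genes (horizontal axis, ordered by mean) in each library on a log axis. Open symbols are the 2 vehicle libraries and filled symbols the 2 PCN libraries. Aldh4a1 is the gene with the widest gap between groups, at 13.4 and 13.6 FPKM against 5.52 and 5.28, and the 2 PCN libraries differ most for Cps1.

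Oat dominated the set. It took 62.4% to 69.7% of the summed FPKM of the 9 genes in each library. By mean over all 4 libraries Oat ranked 208 of 11103, and the other 8 had means from 5.62 (Ass1) to 39.1 FPKM (Otc). In vehicle the order was Oat, Otc, Aldh18a1, Arg2, Prodh, Asl, Aldh4a1, Cps1 and Ass1. The vehicle libraries did not separate Arg2 from its neighbours Aldh18a1 and Prodh, and separated all other neighbours. In PCN Cps1 stood between Prodh and Asl by its mean, and its 2 libraries spanned the values of Asl and overlapped those of Prodh, which also overlapped Arg2. There Aldh4a1 overlapped Ass1, the lowest gene of the set.

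The genes of the enzymes that open and close proline breakdown were lower in both PCN libraries than in either vehicle library, short of the threshold. Aldh4a1, which oxidises the intermediate to glutamate, was at 13.4 and 13.6 FPKM in vehicle and at 5.52 and 5.28 in PCN. The libraries of each group lay close together and the groups were far apart. Its log2 fold change was -1.18 ± 0.12 (SE, 95% interval -1.49 to -0.87), rank 30 of 11103 by p, and its adjusted p in limma, 0.0650, was above the threshold. The log2 fold change stayed at -1.21 to -1.15 when each library was left out in turn, with adjusted p of 0.224 to 0.533 in fits with 1 residual degree of freedom. With the test limited to genes of at least 5 FPKM on average the adjusted p was 0.0302. With a covariate for smooth muscle the estimate was -1.17 ± 0.31 (adjusted p = 0.4998, 1 residual degree of freedom). With a covariate for enterocytes it was -1.17 ± 0.42 (limma adjusted p = 0.490, again 1 residual degree of freedom). Genes of both ends of the small intestine had lower sums in PCN, and colon genes a higher sum. The 6 distal genes summed to 9347 and 7884 FPKM in vehicle against 5306 and 4624 in PCN, mostly Fabp6, with 3 of them below vehicle in both PCN libraries and 3 overlapping. The 6 proximal genes summed to 372 and 373 against 278 and 282, mostly Rbp2. Of the 5 tested among them, 3 were below vehicle in both PCN libraries and 1, Fabp1, above. The 5 colon genes summed to 47.4 and 35.5 in vehicle against 140 and 77.1 in PCN. Car1 among them was at 22.3 and 17.0 against 106 and 60.7. The part of these segment genes in the Aldh4a1 values was not tested.

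Aldh4a1 spans 139622866 to 139649690 of chromosome 4 (mm10, plus strand) and had 1 deposited transcript, with 15 exons in its reference match. The deposited table places Aldh4a1 in a merged locus of 139733 bases with 2 genes. The annotated gene Gm21969 covers Aldh4a1 whole on the same strand and was not analysed here, so reads of both cannot be told apart. Among 7475 other genes averaging 5 FPKM or more, those closest to Aldh4a1 over the 4 libraries by root mean square distance of centred log2 values were Sgk1 (0.058), Susd2 (0.070) and Rdh9 (0.072). With 4 libraries this likeness describes little more than the size of the group difference. Sgk1, a kinase induced by glucocorticoids, and Susd2 passed the threshold as lower (limma adjusted p = 0.0443 and 0.0481), and the retinol dehydrogenase gene Rdh9 did not (adjusted p = 0.0650, or 0.0268 to 0.0476 in the 3 alternatives in which it passed). Leaving out any 1 library ended both calls, with adjusted p of 0.133 to 0.486 for Sgk1 and 0.130 to 0.514 for Susd2.

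Prodh, whose enzyme starts proline breakdown, was at 27.4 and 25.4 FPKM in vehicle and at 22.2 and 16.5 in PCN. Both PCN libraries were below vehicle but differed from each other by more than the nearer of them differed from vehicle. The log2 fold change was -0.44 ± 0.16 (95% interval -0.86 to -0.03, limma adjusted p = 0.501). Leaving out PCN replicate 2 gave -0.24 and leaving out PCN replicate 1 gave -0.65. With an enterocyte covariate the estimate was 0.12 ± 0.42, so its sign was not determined there. Most of the difference was in the most abundant transcript. The form with 1797 coding bases had 19.3 and 15.8 FPKM in vehicle against 12.0 and 8.24 in PCN (log2 fold change -0.75 ± 0.21, adjusted p = 0.446 over 18397 transcripts). The form with 1491 coding bases, which starts further upstream, had 6.85 and 8.54 in vehicle and 8.88 and 7.63 in PCN (0.09 ± 0.16). The main form thus made up 70.3% and 62.0% of Prodh FPKM in vehicle against 53.9% and 49.99% in PCN. That difference in share was not tested. Prodh lies on the minus strand of chromosome 16 at 18060357 to 18090203 and its annotation overlaps Dgcr6 on the opposite strand over 11276 bases, up to 18071632. The reference transcripts matched to the deposited Prodh transcripts start beyond that, at 18071725 or later. Strand use in counting was not given in the sources used here. Dgcr6 was at 50.4 and 52.0 FPKM in vehicle and at 40.2 and 37.1 in PCN, and its part in the Prodh values was not tested.

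Aldh4a1 was lower than Prodh in every library, and its level relative to Prodh was 0.488 and 0.534 in vehicle and 0.248 and 0.320 in PCN. Aldh18a1, which feeds the intermediate from glutamate, was 2.50 and 2.23 times as abundant as Aldh4a1 in vehicle and 5.98 and 6.49 times in PCN. Aldh18a1 itself was at 33.4 and 30.4 FPKM in vehicle and at 33.0 and 34.2 in PCN. Its groups overlapped, and the log2 fold change was 0.08 ± 0.09 (95% interval -0.16 to 0.31, limma adjusted p = 0.839).

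Aldh18a1 is spliced in a pair of forms that differ by 6 coding bases. In human the short form is inhibited by ornithine, the long form is not, and the short form is the one known from the gut. Both had a deposited transcript here. They match reference transcripts of 2385 and 2379 coding bases that differ in the end of 1 exon on chromosome 19, at 40574211 to 40574369 in the long form (minus strand, GRCm38), and in where their first exon starts. The sequences below are from the GENCODE transcripts, 30 bases on each side of the junction, 5′ to 3′ along the mRNA, and show how little tells the forms apart. Capitals mark the 6 added bases, which come after 711 coding bases.
Long form: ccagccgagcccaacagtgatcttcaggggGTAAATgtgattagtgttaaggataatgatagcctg
Short form: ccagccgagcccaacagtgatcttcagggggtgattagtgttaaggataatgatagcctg

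The long form was at 17.8 and 15.7 FPKM in vehicle and at 16.6 and 22.3 in PCN, and the short form at 15.6 and 14.7 in vehicle and at 16.4 and 11.9 in PCN. The forms were thus close to equal in 3 libraries, with 1.01 to 1.14 times as much of the long form, and stood at 1.88 in PCN replicate 2 alone. The log2 fold changes were 0.19 ± 0.17 for the long and -0.10 ± 0.17 for the short form (limma adjusted p = 0.778 and 0.9001 over all transcripts). Only reads over the 6 bases or at the 5′ ends separate these estimates, so the split is uncertain.

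**Figure D2:**
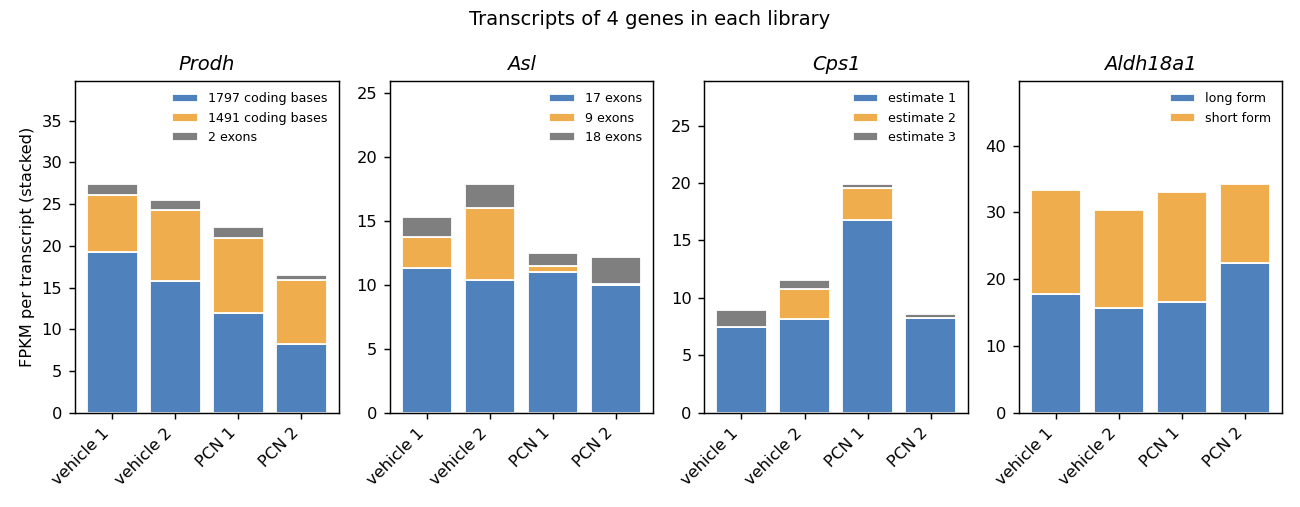
FPKM of each deposited transcript, stacked, in the 4 libraries for Prodh, Asl, Cps1 and Aldh18a1. The main Prodh transcript is shorter in the PCN bars (12.0 and 8.24 FPKM against 19.3 and 15.8). The 9-exon Asl transcript nearly vanishes from them, but it was listed only through its vehicle values. Cps1 is high in PCN replicate 1 only, and the long form of Aldh18a1 is high in PCN replicate 2.

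Oat, which links the intermediate to ornithine, was at 349 and 284 FPKM in vehicle and at 325 and 321 in PCN. Both PCN libraries lay between the vehicle libraries, and the log2 fold change was 0.04 ± 0.11 (95% interval -0.25 to 0.32, limma adjusted p = 0.945). Oat was 26.1 and 20.9 times as abundant as Aldh4a1, the other enzyme that uses the intermediate, in vehicle, and 58.9 and 60.9 times in PCN. Oat lies on the minus strand of chromosome 7 at 132557478 to 132576398. The deposited table places it in a merged locus of 2961904 bases with 20 genes. The annotated span of Fgfr2 covers it on the same strand, and Fgfr2 itself had 4.44 to 5.48 FPKM.

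For citrulline synthesis proper, Otc was at 43.5 and 39.0 FPKM in vehicle and at 37.7 and 36.1 in PCN. The groups did not overlap, by a narrow gap, and limma gave a log2 fold change of -0.15 ± 0.09 (95% interval -0.39 to 0.08, limma adjusted p = 0.687). Both of its deposited transcripts match the same reference transcript of 10 exons on chromosome X, and the larger held 78.5% to 82.0% of Otc FPKM in every library. Oat was 7.28 to 8.89 times as abundant as Otc over the 4 libraries.

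Cps1, which supplies carbamoyl phosphate and is the entry to the urea cycle in liver, was at 8.97 and 11.5 FPKM in vehicle and at 19.9 and 8.58 in PCN. One PCN library was the highest of all and the other the lowest. The log2 fold change was 0.34 ± 0.39 (95% interval -0.66 to 1.34, limma adjusted p = 0.830), and its sign rested on 1 library. It was 0.90 without PCN replicate 2 and -0.22 without PCN replicate 1. The 3 deposited transcripts all match the same reference of 38 exons on chromosome 1. The largest estimate had 7.45 and 8.16 FPKM in vehicle against 16.8 and 8.26 in PCN, and another was listed at 0 in vehicle replicate 1 and in PCN replicate 2. Otc was 4.84 and 3.38 times as abundant as Cps1 in vehicle and 1.89 and 4.21 times in PCN.

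**Figure D3:**
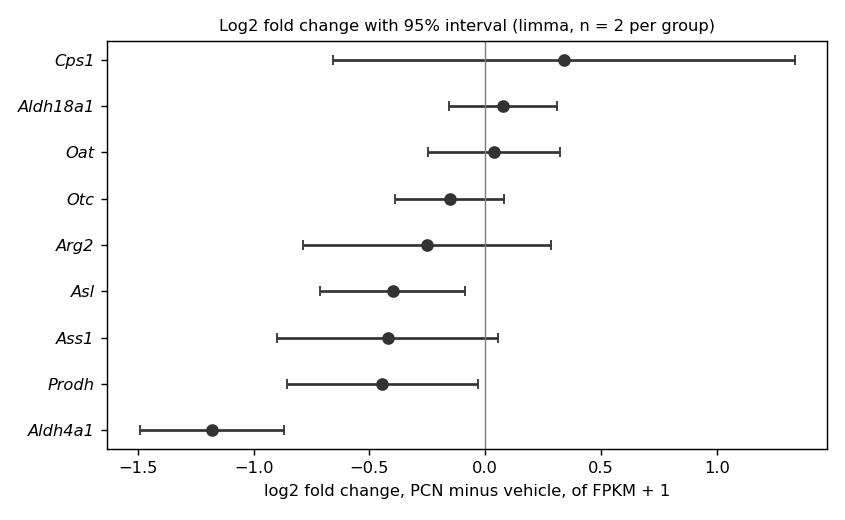
Log2 fold change of each gene, PCN minus vehicle on the log2(FPKM + 1) scale, from limma with 2 libraries per group. Points are estimates and bars 95% intervals without adjustment. The intervals of Aldh4a1 (-1.49 to -0.87), Prodh and Asl lie below 0, and Cps1 has the widest (-0.66 to 1.34).

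The arginine-forming genes Ass1 and Asl were below vehicle in both PCN libraries, again short of the threshold. Smooth muscle genes were lower in PCN too. With the covariate for smooth muscle the log2 fold changes of -0.42 and -0.40 became -0.11 ± 0.43 and -0.13 ± 0.26. With the enterocyte covariate they became -0.97 ± 0.56 and -0.74 ± 0.36. Both fits have 1 residual degree of freedom, and the part of either cell type in these values was not tested. Ass1 was at 6.25 and 6.84 FPKM in vehicle and at 3.95 and 5.41 in PCN, the lowest gene of the set by mean. Its log2 fold change was -0.42 ± 0.19 (95% interval -0.90 to 0.06, limma adjusted p = 0.566). Asl was at 15.3 and 17.9 FPKM in vehicle and at 12.5 and 12.2 in PCN. The PCN libraries were close together and below both vehicle libraries, with a log2 fold change of -0.40 ± 0.12 (95% interval -0.71 to -0.09, limma adjusted p = 0.409).

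Most of the gap in Asl was in a partial transcript. The 17-exon form, with the whole coding part of 1392 bases, had 11.3 and 10.4 FPKM in vehicle against 10.99 and 9.997 in PCN (log2 fold change -0.05 ± 0.11, limma adjusted p = 0.942). The form matched to a 9-exon reference with 799 coding bases had 2.47 and 5.57 FPKM in vehicle against 0.489 and 0.0868 in PCN (-1.91 ± 0.44, adjusted p = 0.374). In each deposited transcript the larger group mean was above 1 FPKM, and this form met that only through vehicle (means 4.02 and 0.288). A transcript with such a PCN mean could be listed only as lower, so its direction is no support for a change. Asl was 2.24 to 3.16 times as abundant as Ass1 over the 4 libraries.

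Arg2 was at 34.99 and 26.3 FPKM in vehicle and at 29.8 and 21.5 in PCN. The groups overlapped, with a log2 fold change of -0.25 ± 0.21 (95% interval -0.79 to 0.28, limma adjusted p = 0.751). Arg2 lies on chromosome 12 at 79130777 to 79156301 and its last 285 bases overlap Vti1b on the opposite strand. The cytosolic arginase Arg1, best known from hepatocytes and macrophages, was at 2.83 and 5.56 FPKM in vehicle and at 1.58 and 1.38 in PCN (log2 fold change -1.02 ± 0.30, adjusted p = 0.395). That value was -0.63 without vehicle replicate 2, the library with the most smooth muscle RNA. It was -0.017 ± 0.51 with the smooth muscle covariate and -2.28 ± 0.75 with the enterocyte covariate (1 residual degree of freedom each). The part of any cell type in the Arg1 values was not tested. The 11 macrophage genes in the table summed to 303 and 343 FPKM in vehicle against 310.4 and 338 in PCN.

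The surrounding pathways were read from 5 lists of 71 genes, of which 52 were tested, and 0 of the 52 passed the test over all genes, where 0.135% of all tested genes did. Over all tested genes 49.4% had a negative log2 fold change. Of 6 tested urea cycle genes and carriers, 2 had a positive and 4 a negative log2 fold change (median -0.38). The mitochondrial ornithine and citrulline carrier gene Slc25a15, through which the product of Otc leaves, was at 63.4 and 57.2 FPKM in vehicle and at 37.4 and 37.1 in PCN. The groups lay far apart, and the log2 fold change was -0.68 ± 0.09 (limma adjusted p = 0.0983). Nags makes the activator of Cps1 and was at 14.6 and 12.6 FPKM in vehicle against 17.3 and 17.0 in PCN (0.32 ± 0.12, adjusted p = 0.502). The aspartate and glutamate carrier gene Slc25a13 was low, at 1.56 and 1.96 in vehicle and 2.26 and 3.01 in PCN (adjusted p = 0.655). The median of this list rested on vehicle replicate 1, since without it the median was 0.01.

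Of 12 tested genes of glutamine and glutamate entry, 4 had a positive and 8 a negative log2 fold change (median -0.06). The glutamate dehydrogenase gene Glud1 was at 79.6 and 74.3 FPKM in vehicle and at 59.6 and 54.5 in PCN, with a log2 fold change of -0.43 ± 0.08 (limma adjusted p = 0.211). The amino acid transporter gene Slc38a2 was at 30.01 and 29.4 in vehicle and at 34.2 and 36.0 in PCN (0.23 ± 0.08, adjusted p = 0.496).

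Of 8 tested genes of proline synthesis, recycling and transport, 5 had a positive and 3 a negative log2 fold change (median 0.11). The proline transporter gene Slc6a20a was at 79.7 and 73.4 FPKM in vehicle and at 48.1 and 42.0 in PCN, without overlap (log2 fold change -0.76 ± 0.10, limma adjusted p = 0.109). Slc6a20a sits in a merged locus of 258141 bases with 5 genes in the deposited table. The prolidase gene Pepd, which frees proline from dipeptides, was at 147 and 137 in vehicle and at 128 and 117 in PCN (-0.21 ± 0.08, adjusted p = 0.531). The largest positive value in the list belonged to Ero1l, an oxidase of the endoplasmic reticulum and no enzyme of proline itself, at 17.5 and 15.5 in vehicle and 24.1 and 24.5 in PCN (0.54 ± 0.11, adjusted p = 0.209).

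**Figure D4:**
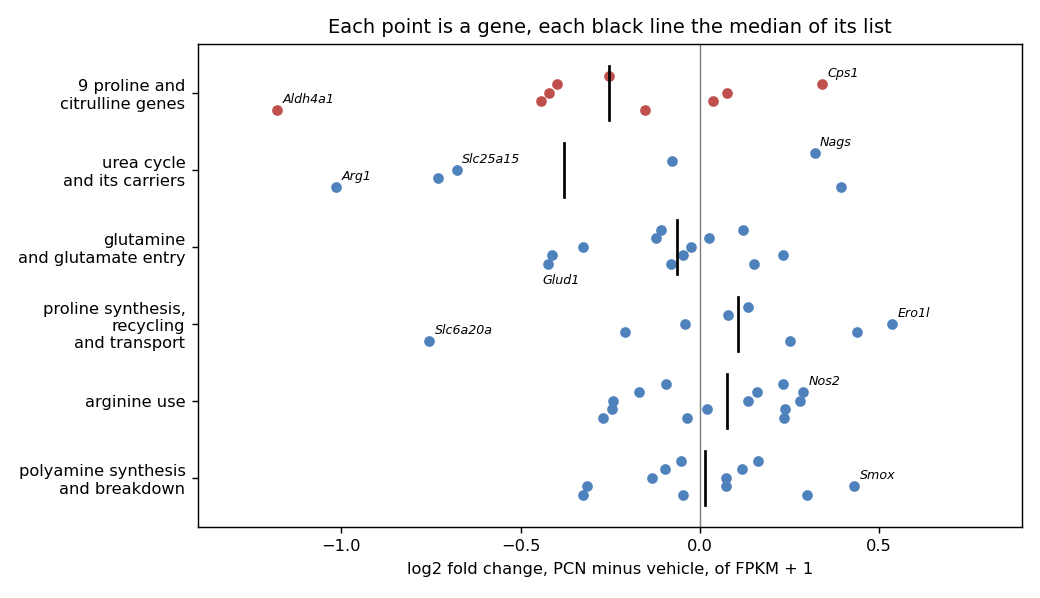
Log2 fold change of every tested gene (PCN minus vehicle, log2(FPKM + 1) scale) in the 9-gene set and in the 5 surrounding lists. Points are genes, black lines medians, and vertical position within a list carries no value. Aldh4a1 (-1.18) is the leftmost point, Arg1 (-1.02) is leftmost among the urea cycle genes, where Slc25a15 is at -0.68, and Slc6a20a (-0.76) is leftmost in the proline list.

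Of 14 tested genes of arginine use, 8 had a positive and 6 a negative log2 fold change (median 0.08). The subunits of the cystine and dibasic amino acid transporter, Slc3a1 and Slc7a9, were its most abundant genes. Slc3a1 was at 206 and 197 FPKM in vehicle and at 235 and 208 in PCN, and Slc7a9 at 160.1 and 158 in vehicle and at 209 and 179 in PCN (limma adjusted p = 0.693 and 0.461). The inducible nitric oxide synthase gene Nos2 was at 50.9 and 49.9 in vehicle and at 59.8 and 63.7 in PCN (log2 fold change 0.29 ± 0.08, adjusted p = 0.340). Ddah2, whose enzyme breaks down methylated arginine, was at 3.49 and 4.40 in vehicle and at 3.48 and 2.86 in PCN (adjusted p = 0.737).

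Of 12 tested genes of polyamine synthesis and breakdown, which use the ornithine that arginase makes, 6 had a positive and 6 a negative log2 fold change (median 0.01). The antizyme gene Oaz1, at 187 to 214 FPKM, and the spermidine and spermine acetyltransferase gene Sat1, at 153 to 169, were the most abundant (limma adjusted p = 0.885 and 0.640). The spermine oxidase gene Smox was at 8.83 and 9.86 in vehicle and 11.9 and 14.1 in PCN (adjusted p = 0.446). Oaz2, another antizyme, was at 18.5 and 20.7 in vehicle and 15.9 and 14.9 in PCN (adjusted p = 0.461).

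Promoter windows, from 250 bases before to 50 after the start of a gene, were found for 6 of the 9 genes in the RefSeq table (GRCm38.p6): Ass1, Aldh4a1, Oat, Prodh, Aldh18a1 and Otc. Of these, 0 held a direct repeat of AGTTCA or AGGTCA spaced by 3 or 4 bases or an everted repeat spaced by 6, the arrangements that PXR is known to bind. Such repeats are rare in windows of this size (0.0122%, 0.0274% and 0.00913% of 32851 windows). The single half-site AGTTCA, on either strand, was in the windows of Oat and Otc and in 13.99% of all windows, and AGGTCA and TGTTCT were in 0 of the 6 (16.3% and 18.97% of all windows). PXR sites can lie far outside such a window. Repeats that hold a half-site with other bases, such as AGATCA, were not searched for and would be missed.

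The window of Aldh4a1, the gene with the widest group difference, is at chr4:139622644-139622943, plus strand. It is shown 5′ to 3′ with capitals on ATTGG, the inverse of the CCAAT box, which was looked for after the windows had been read.
Aldh4a1: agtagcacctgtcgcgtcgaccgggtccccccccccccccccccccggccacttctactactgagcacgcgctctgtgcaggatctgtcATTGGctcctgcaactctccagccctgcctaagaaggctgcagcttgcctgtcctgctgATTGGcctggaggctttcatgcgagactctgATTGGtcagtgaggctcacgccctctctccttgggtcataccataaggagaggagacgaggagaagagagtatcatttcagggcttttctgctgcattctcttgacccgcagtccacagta

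ATTGG, searched on both strands, was in 2 of the 6 windows and in 37.4% of all windows, so its presence is common. It was present 3 times in the Aldh4a1 window, and at least 3 times in 3.37% of all windows. That count was set after the window had been read. Oat had 2 matches and the other 4 windows 0. These matches are letters in a sequence and were not tested against the expression values.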

How the data were processed

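Total RNA of mouse ileum was made into libraries with a SMARTER kit per the labels, 2 from vehicle and 2 from PCN mice. The labels do not tie a library to its own animal, so the spread on which p-values rest is that of samples and may be technical only. The deposited values are FPKM of 21160 transcripts, estimated by the authors on mm10 per the submitters' processing notes. Aligner and estimator are not given in the sources used here. Supplementary methods describe another tissue and genome. In each transcript the larger group mean was above 1 FPKM, so low transcripts were not analysed here. Estimates divide shared reads between transcripts and overlapping genes, and no read depth or counting interval can be given.

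FPKM were summed per gene symbol. Genes averaging 1 FPKM or more (11103) entered limma 3.58.1 in R 4.3.3 as log2(FPKM + 1), with the trend option, 4 libraries, 2 residual degrees of freedom, Benjamini-Hochberg adjustment and a threshold of 0.05. Fold changes understate those of low genes. The procedure was tested on simulated data. Members and lists were chosen with earlier results of these data known. Named genes were the 9 members, Nr1i2, Cyp3a11 and Cyp2c55, and from each pathway list those past the threshold (up to 4), the 2 most abundant and the largest change in each direction without overlap of groups, plus the 3 genes nearest in pattern to the member with the largest change. A gene that this rule names is not reported here. Transcripts were matched to GENCODE M21 by the identifier in the table. Alternatives were other pseudocounts, filters, scalings, a replicate block, cell type covariates and each library left out, and, chosen after seeing the data, transcripts tested one by one.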

Additional observations from a re-analysis of the deposited data

How the results depend on the processing

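With 2 libraries per group the count of called genes was unstable. The 9 genes called higher became 5 with a pseudocount of 0.1, 34 at a mean of at least 5 FPKM, 25 after scaling to total FPKM, 2 without the variance trend, 3 with the enterocyte score and 0 with the score of smooth muscle genes in the model. The 6 called lower became 22 at a mean of at least 5 FPKM, 14 after scaling to total FPKM, and 0 without the trend, with either covariate or with the highest transcript of each gene. In those limma fits with 0 calls, 351 genes were higher at an unadjusted p under 0.05 with the smooth muscle score, and 428 to 471 lower. With each library left out, 0 to 8 were called higher and 0 to 12 lower. At a mean of at least 5 FPKM 1 of the 9 members was called lower, Aldh4a1. Its log2 fold change was -1.31 to -1.13 over the 16 alternatives, with adjusted p of 0.0302 to 0.533. Slc25a15 and Slc6a20a also passed at that minimum (adjusted p = 0.0465 for each). Without the variance trend their limma adjusted p was 0.307 and 0.312. With the enterocyte covariate their log2 fold changes were -0.41 ± 0.24 and -0.37 ± 0.25 (limma adjusted p = 0.674 and 0.705).

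With the replicate number as a block 39 genes were called higher and 21 lower, and no call of a member differed, while Slc6a20a passed (adjusted p = 0.0415). The numbers did not pair the libraries (correlation of deviations 0.0341 over 11103 genes).

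Signs turned as follows, all for values short of the threshold, and the cause was not tested. With the enterocyte covariate the log2 fold change was 0.17 ± 0.25 for Otc, 0.12 ± 0.42 for Prodh and 0.88 ± 0.34 for Arg2. It was -0.26 ± 0.64 for Slc25a13, 0.091 ± 0.22 for Pepd and -0.038 ± 0.40 for Smox. With the smooth muscle covariate it was -0.37 ± 0.17 for Oat, -0.080 ± 0.21 for Aldh18a1 and -0.032 ± 0.19 for Slc3a1. The values of Ddah2 and Oaz1 were 0.026 ± 0.46 and 0.018 ± 0.22. Both scores rest on lists with genes that differed between the groups, so score and group are hard to separate in 4 libraries. Without a covariate the SE of Prodh was 0.16. After scaling to total FPKM Oaz1 was at 0.0021. With each library left out the log2 fold change was -0.22 to 0.90 for Cps1, -0.11 to 0.19 for Oat and -0.14 to 0.037 for Oaz1. The medians of the lists ranged with each library left out from -0.44 to 0.013 (urea cycle), -0.11 to -0.021 (glutamine and glutamate), 0.032 to 0.18 (proline), 0.0069 to 0.13 (arginine) and -0.050 to 0.16 (polyamines). Fits with a block, a covariate or a library left out have 1 residual degree of freedom.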

Other observations

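Aldh4a1 also acts in the breakdown of hydroxyproline. Hoga1, the aldolase that ends that pathway, was too low to be tested, at 1.07 and 1.41 FPKM in vehicle against 0.638 and 0.433 in PCN. Its 1 transcript met the 1 FPKM minimum of the deposited table only through vehicle (means 1.24 and 0.535). The lower PCN values are therefore no support for a change. The carrier gene Slc25a12 was at 4.41 and 1.13 FPKM in vehicle, with PCN values of 1.13 and 0.961, so its log2 fold change of -0.73 ± 0.47 (limma adjusted p = 0.695) rested on vehicle replicate 1. Both genes were named after their values had been seen.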
